A study of Mus musculus with 4 samples.

Results

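The genes described here encode 9 proteins of the podocyte slit diaphragm and of the apical membrane above it. They were taken as the rows of the deposited count table whose gene name was Nphs1, Kirrel, Fat1, Cd2ap, Tjp1, Magi2, Trpc6, Podxl or Ptpro. Each name matched 1 row, so 9 of the 54532 genes in the table were examined. RNA-sequencing was performed on MPC5, a mouse podocyte cell line. The line is conditionally immortalized, which means that it divides under interferon-γ and takes on podocyte features after the cytokine is removed and the temperature is raised. The control group (2 libraries) received saline, and the IL-12 treatment group (2 libraries) received IL-12 for 6 h. All libraries came from this single cultured line, without the endothelium and basement membrane that podocytes face in the glomerulus. Whether replicates were grown as separate cultures is stated neither in the labels nor in the methods, so the p-values measure only the spread between these libraries, which may be technical.

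Podocytes wrap the glomerular capillaries with interdigitating foot processes, and the slit diaphragm is the cell junction that bridges the gap between neighbouring processes. Nephrin (Nphs1) and Neph1 (Kirrel) are immunoglobulin-type adhesion receptors that reach across the slit, and the large cadherin FAT1 lies in the same junction. Cytoplasmic scaffolds, among them CD2AP, ZO-1 (Tjp1) and MAGI-2, tie these receptors to actin, and the calcium channel TRPC6 is part of the complex. Podocalyxin (Podxl), a heavily charged sialomucin, and the receptor tyrosine phosphatase GLEPP1 (Ptpro) belong to the apical membrane of the foot process rather than to the junction itself. Loss or mutation of several of these proteins is known to cause proteinuria.

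The total counts were between 18355379 and 20098012 per library, and 3 counts, the floor used here, were then worth 0.149 to 0.163 CPM (counts scaled to the library total). Such a floor takes in only the error of counting. The CPM values of genes given below were in addition scaled by the TMM factor of each library, a normalization factor applied to the library total. Replicates of the same group were not one library deposited again, since their chi-square divided by its degrees of freedom was 2.13 (control) and 2.42 (IL-12), and each was counted as a replicate. The podocyte label was examined with 14 marker genes, of which 7 had enough counts to be tested. Vim, Actn4, Nes and Synpo, genes of the podocyte cytoskeleton, had the highest levels of the list. Ptpro and Tcf21, a transcription factor of podocyte development, had 0 counts in every library. Wt1, the podocyte transcription factor, is named here after its values were seen. It had 4 and 16 counts in the control group and 4 and 8 in the IL-12 treatment group. Among 11 markers of parietal and tubular epithelium, Pax2, Lrp2 and Pax8 had the highest levels, at 40.7, 38.7 and 26.8 FPKM in the control group (fragments scaled to gene length and library total, a level per length), and Epcam and Umod had 0 counts. None of the 6 endothelial markers had enough counts to be tested. The data therefore go against the label where the RNA of nephrin, GLEPP1 and Wt1 is concerned, and the 9 genes are described below as genes of this line.

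Of the 9 genes, 6 were expressed and 3 were at or near 0. Kirrel and Fat1 were among the most abundant genes of the line, Tjp1, Cd2ap and Podxl were at intermediate levels, and Magi2 was low. Nphs1, Trpc6 and Ptpro were not detectable at this depth in either group. After IL-12 treatment Podxl rose 1.26-fold, and the other 5 expressed genes did not pass the test.

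The RNA of nephrin, the defining receptor of the slit diaphragm, was almost absent. Nphs1 (ENSMUSG00000006649, chromosome 7 from 30458315 to 30487223, plus strand) had 0 and 1 counts in the control group and 0 and 0 counts in the IL-12 treatment group. For a gene of its length, 3 counts would correspond to 0.0229 to 0.0251 FPKM, the floor used here. Its span holds the antisense gene Nphs1os, with 0 counts, and a ribosomal pseudogene on the opposite strand, Rps12-ps4, with 230 counts over the 4 libraries. Trpc6 (chromosome 9 from 8544142 to 8680741) had 0 counts in each of the 4 libraries, with a floor of 0.0300 to 0.0328 FPKM. Ptpro (chromosome 6 from 137252319 to 137463233) also had 0 counts in each library, with a floor of 0.0226 to 0.0247 FPKM. These 3 genes did not pass the count filter, so no fold change is given for them, and an effect of IL-12 on them could not be measured here.

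**Figure D1:**
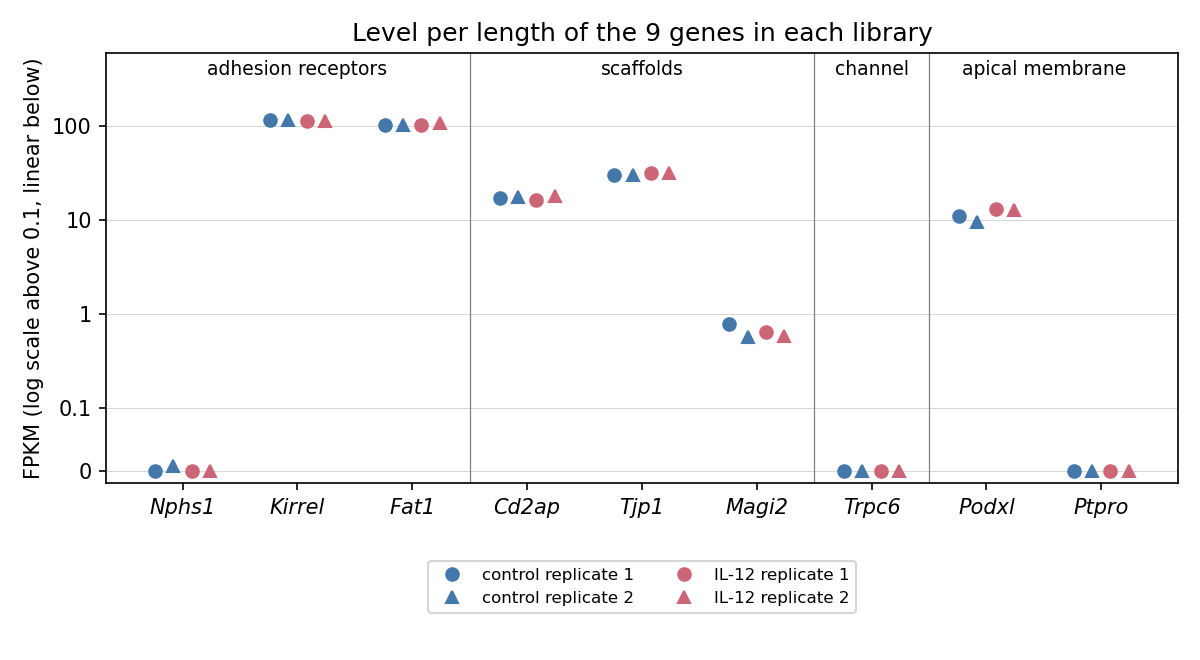
Level per length (FPKM, vertical axis, log scale above 0.1 and linear below) of the 9 genes in each library, with control libraries in blue and IL-12 libraries in red. Kirrel and Fat1 lie near 100 FPKM in every library, whereas Nphs1, Trpc6 and Ptpro lie at 0 or, in 1 control library for Nphs1, at 0.00801 FPKM.

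The RNA of the other receptor of the slit, Neph1, was by contrast abundant. Kirrel (ENSMUSG00000041734, chromosome 3 from 87078593 to 87174747, minus strand) had 16499 and 16377 counts in the control group and 16740 and 15366 counts in the IL-12 treatment group. Per length this was 116.6 and 116.4 FPKM against 113.5 and 113.9 FPKM, so both IL-12 libraries lay slightly below both control libraries. Its level exceeded that of 97.4% to 97.8% of all genes tested. The log2 fold change was -0.04 (standard error 0.03, adjusted p = 0.33 by edgeR's quasi-likelihood test), and the 95% interval of the ratio of IL-12 to control ran from 0.939 to 1.01. With scaling by total counts only, the log2 fold change was -0.08 and passed the test (adjusted p = 0.0309 by the same edgeR test).

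Fat1 (ENSMUSG00000070047, chromosome 8 from 44935447 to 45052257, plus strand) had the most counts of the 9 genes, with 30239 and 30065 in the control group and 32060 and 30378 in the IL-12 treatment group. As FPKM the values were 101.9 and 101.8 against 103.6 and 107.4, with both IL-12 libraries above both control libraries. The log2 fold change was 0.05 (standard error 0.02, adjusted p = 0.154 by edgeR's quasi-likelihood test), with a ratio between 0.998 and 1.07 (95% interval). With scaling by total counts only, the log2 fold change of Fat1 was 0.0084 (adjusted p = 0.842 by the same edgeR test). On that scale the groups overlapped, so their separation depends on the scaling. A 2-fold change lies outside the intervals of both receptor genes.

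The scaffold genes differed widely in level. Tjp1 (chromosome 7 from 65296165 to 65527781, minus strand), which encodes the junction scaffold ZO-1, had 30.2 and 29.9 FPKM in the control group and 31.4 and 31.4 FPKM in the IL-12 treatment group. The groups did not overlap, but the log2 fold change was 0.06 (standard error 0.03) and did not pass (adjusted p = 0.21 by edgeR's quasi-likelihood test, 95% interval of the ratio 0.992 to 1.10). Cd2ap (chromosome 17 from 42792951 to 42876665, minus strand), the adaptor that links nephrin to actin, had 17.3 and 17.7 FPKM in the control group and 16.6 and 18.0 FPKM in the IL-12 treatment group. Here the groups overlapped, since the IL-12 libraries were the lowest and the highest of the 4, and the ratio was 0.987 with a 95% interval of 0.933 to 1.04 (adjusted p = 0.762 by the same edgeR test). Magi2 (chromosome 5 from 19227036 to 20704792, plus strand), a scaffold with PDZ and WW domains that spans 1478 kb of the genome, had only 167 and 121 counts in the control group and 143 and 119 counts in the IL-12 treatment group. The control libraries differed from each other by more than the groups did, and the log2 fold change of -0.14 (standard error 0.16) had an interval of the ratio from 0.717 to 1.15 (adjusted p = 0.577 by the same edgeR test). With so few counts, the interval of Magi2 was the widest of the 6.

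Podxl was the member that changed. Podxl (ENSMUSG00000025608, chromosome 6 from 31519488 to 31563981, minus strand) had 1151 and 992 counts in the control group and 1441 and 1267 counts in the IL-12 treatment group. As FPKM the values were 11.1 and 9.59 in the control group and 13.3 and 12.8 in the IL-12 treatment group, so the groups did not overlap, and the distance between the control libraries was the larger of the spreads within a group. In the control group the mean was 56.6 ± 5.79 CPM (SD, n = 2), and after IL-12 the mean was 71.4 ± 1.98 CPM (SD, n = 2). On the log2 scale Podxl rose by 0.33 (standard error 0.06), and edgeR's quasi-likelihood test gave an adjusted p of 0.000391. As a ratio this was 1.26, with a 95% interval of 1.15 to 1.38. Its interval on the log2 scale, 0.20 to 0.47, did not overlap that of Kirrel, Fat1, Tjp1 or Cd2ap, and its lower bound of 0.2038 was just above the upper bound of Magi2 (0.2015). Without IL-12 replicate 1 the log2 fold change was 0.31 and no longer passed (adjusted p = 0.0516 by the same edgeR test). No annotated gene overlaps Podxl in the deposited table.

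**Figure D2:**
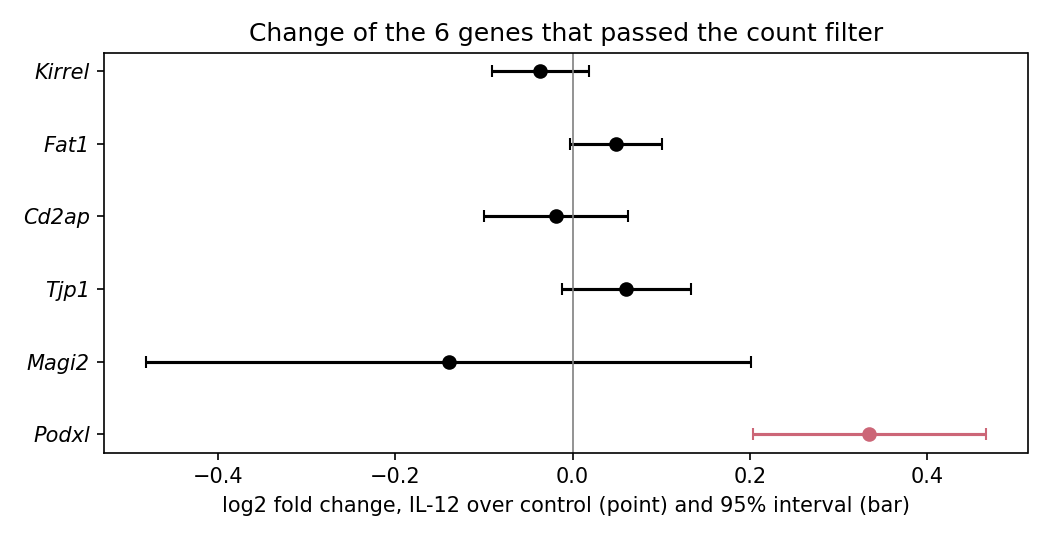
Log2 fold change of IL-12 over control (horizontal axis) with its 95% interval for the 6 genes that passed the count filter. The interval of Podxl (0.20 to 0.47) lies above 0, and the intervals of Kirrel, Fat1, Cd2ap, Tjp1 and Magi2 include 0.

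Thus 1 of the 6 genes tested passed the adjusted p threshold of 0.05, whereas 30.5% of all 14095 genes tested did so, 16.1% of them as higher. In TMM-scaled level the groups did not overlap for 4 of the 6 genes, against 62.9% of all genes tested (31.7% higher and 31.2% lower). Of the 4, Fat1, Tjp1 and Podxl were higher and Kirrel was lower. Without the TMM factors the groups of Fat1 overlapped. The largest change, that of Podxl, was under 2-fold, the limit that the study used for differential genes and that 1.61% of all genes tested passed together with the p threshold (0.858% higher and 0.752% lower). The median log2 fold change was 0.02 over the 6 genes and -0.0022 over all genes tested. The summed TMM-scaled level of the 9 genes was 3030 to 3044 CPM in the control group and 3051 to 3131 CPM after IL-12. The TMM factors were 1.015 and 1.013 in the control group and 0.9853 and 0.9866 in the IL-12 treatment group. They lowered the control sums and raised the IL-12 sums. Scaled by library totals alone, the sums of the groups overlapped, so the higher IL-12 sums depend on the TMM factors.

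The order of the levels depends on the length that is used. With the deposited gene lengths the order was Kirrel, Fat1, Tjp1, Cd2ap, Podxl and Magi2, and in no library did a gene reach the level of the gene before it. The deposited length of Cd2ap, 15864 bases, is 8.30 times its longest coding sequence in GENCODE release M21, whereas that of Fat1 is 1.12 times its coding sequence. Per coding length, Cd2ap moved from the fourth to the second place, at 138 to 149 FPKM against 114 to 121 FPKM for Fat1. On that scale the ranges of Tjp1 (44.6 to 46.8 FPKM) and Podxl (34.9 to 48.3 FPKM) overlapped. Kirrel was first and Magi2 last of the 6 expressed genes on both scales.

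The start sites of the 3 genes at or near 0 counts are shown beside those of Kirrel and Cd2ap, so that the base composition of their promoters, which the choice of genes did not use, can be compared. Kirrel and Cd2ap do not stand for all expressed genes. Fat1 and Magi2, which are not printed, each have a start window with few CG dinucleotides. RefSeq start sites in GRCm38.p6 were at hand for 8 of the 9 genes (not Podxl), each as a window of 300 bases from 250 before the start to 50 after it. In the stretches of 250 bases before the start printed here, 5′ to 3′ on the strand of the gene, capitals mark each CG dinucleotide.
Nphs1 (RefSeq, GRCm38.p6, chr7:30459808-30460057, + strand): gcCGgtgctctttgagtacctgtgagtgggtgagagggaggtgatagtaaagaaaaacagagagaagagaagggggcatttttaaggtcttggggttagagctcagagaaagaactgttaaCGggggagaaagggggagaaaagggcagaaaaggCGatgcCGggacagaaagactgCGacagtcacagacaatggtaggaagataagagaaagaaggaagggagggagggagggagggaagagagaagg
Ptpro (RefSeq, GRCm38.p6, chr6:137252049-137252298, + strand): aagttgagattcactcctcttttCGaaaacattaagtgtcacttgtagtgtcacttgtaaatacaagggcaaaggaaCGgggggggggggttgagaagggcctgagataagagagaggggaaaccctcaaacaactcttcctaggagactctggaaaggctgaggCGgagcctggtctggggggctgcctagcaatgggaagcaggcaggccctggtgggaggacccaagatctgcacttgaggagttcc
Trpc6 (RefSeq, GRCm38.p6, chr9:8543892-8544141, + strand): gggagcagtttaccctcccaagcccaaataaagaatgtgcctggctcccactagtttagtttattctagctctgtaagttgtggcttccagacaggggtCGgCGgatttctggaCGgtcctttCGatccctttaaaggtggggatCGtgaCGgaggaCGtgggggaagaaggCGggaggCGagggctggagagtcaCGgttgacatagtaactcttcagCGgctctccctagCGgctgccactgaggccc
Kirrel (RefSeq, GRCm38.p6, chr3:87174538-87174787, - strand): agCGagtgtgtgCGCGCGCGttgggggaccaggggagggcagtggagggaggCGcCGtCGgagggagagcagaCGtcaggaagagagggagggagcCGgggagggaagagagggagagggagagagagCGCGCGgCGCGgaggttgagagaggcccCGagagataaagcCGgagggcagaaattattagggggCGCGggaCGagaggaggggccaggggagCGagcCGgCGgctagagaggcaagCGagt
Cd2ap (RefSeq, GRCm38.p6, chr17:42876425-42876674, - strand): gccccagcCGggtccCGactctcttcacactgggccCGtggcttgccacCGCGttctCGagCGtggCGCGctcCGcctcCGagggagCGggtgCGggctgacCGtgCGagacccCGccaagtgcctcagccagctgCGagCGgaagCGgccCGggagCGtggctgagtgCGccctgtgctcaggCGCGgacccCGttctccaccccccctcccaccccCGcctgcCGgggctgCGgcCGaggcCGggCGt

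The windows of Nphs1 and Ptpro held 6 and 5 CG dinucleotides, that of Trpc6 held 17, and those of Kirrel, Tjp1 and Cd2ap held 28, 31 and 41. Over all start sites of genes that were tested the median was 21, and over those of genes with 0 counts in every library it was 3. Under 10 CG dinucleotides were held by 20.7% of the former and 82.7% of the latter start sites. The 2 starts of Magi2 held 29 and 4. Fat1 was an exception among the expressed genes, with 2 CG dinucleotides, but its RefSeq start lies 14761 bases inside the gene as deposited. Those of Nphs1 and Tjp1 likewise lie 1743 and 156537 bases inside. Short motifs were searched on both strands of the 300 bases. The WT1 and EGR type motif GNGTGGGNG was found in the windows of Nphs1, Cd2ap, Fat1, Tjp1 and the upstream start of Magi2, and in 14.3% of all start windows. The TEAD type motif GGAATG was found in the windows of Fat1 and the downstream start of Magi2, and in 14.7% of all windows. The homeodomain type motif TAATTA was found at the downstream start of Magi2 and in 5.29% of all windows, and the AP-1 type motif TGANTCA was in none of the 9 windows and in 7.81% of all. A match of letters is not evidence of binding.

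**Figure D3:**
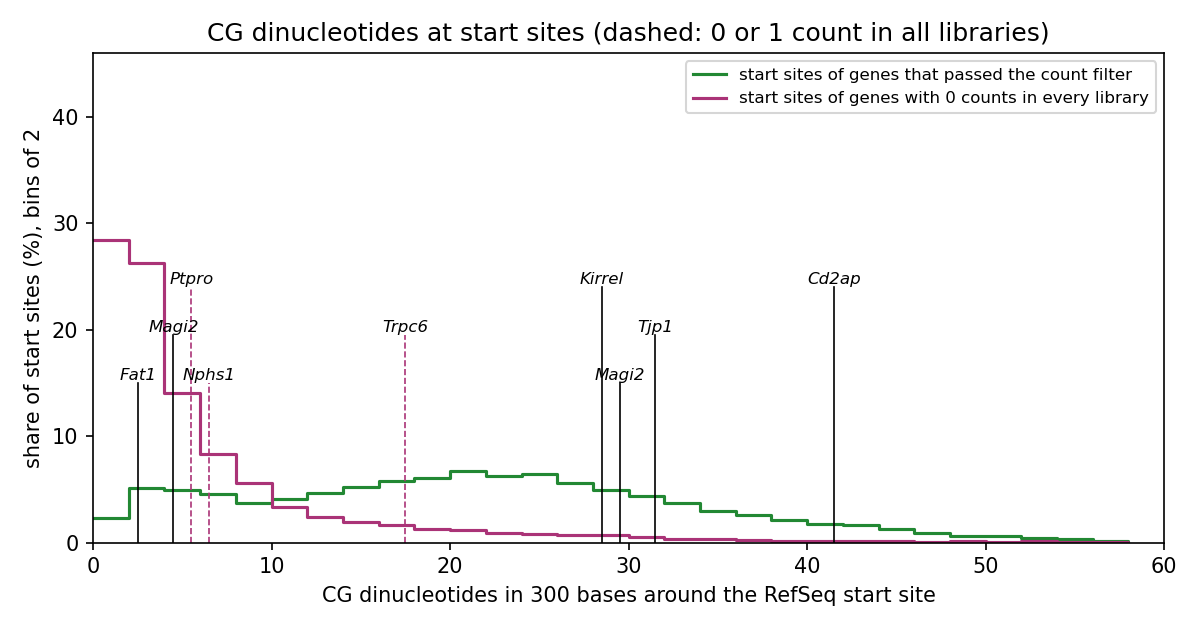
Number of CG dinucleotides in the 300 bases around RefSeq start sites (horizontal axis) and share of start sites in bins of 2 (vertical axis, percent), for genes that passed the count filter in green and genes with 0 counts in purple. Vertical lines mark the windows of the 9 genes other than Podxl, dashed for Nphs1, Ptpro and Trpc6, with 6, 5 and 17 CG dinucleotides.

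Each of the 9 genes belongs to a family, and the families showed which paralog this line used. Kirrel made up 99.7% to 99.9% of the summed FPKM of nephrin and the Neph receptors, and its paralog Kirrel2 had 0 counts in every library. Fat1 made up 95.1% to 96.4% of the FAT cadherins. Cd2ap made up 94.8% to 95.9% of the sum with its paralog Sh3kbp1, the gene of the adaptor CIN85. Magi2, by contrast, held only 1.88% to 2.88% of the MAGI scaffolds, of which Magi3 held 80.0% to 86.4%. Among R3 receptor phosphatases, the group of Ptpro, Ptprj held 98.1% to 98.9% while Ptpro and Ptprh had 0 counts. Among TRPC channels, Trpc1 was at 1.20 to 1.52 FPKM, and Trpc6 and Trpc7 had 0 counts in every library. These shares rest on the deposited lengths.

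Of 18 paralogs on the list, 11 were tested, 4 fell and 7 did not pass, against 14.4% of all genes tested that fell, and the median log2 fold change was -0.04. Magi3 was at 26.1 and 26.0 FPKM in the control group and at 17.7 and 18.1 FPKM in the IL-12 treatment group. It fell by 0.54 on the log2 scale (standard error 0.04, adjusted p = 3.31e-09 by edgeR's quasi-likelihood test), and its interval of -0.62 to -0.46 overlapped that of Magi2 (-0.48 to 0.20). Podxl2, which encodes the podocalyxin relative endoglycan, had 5.45 and 5.29 FPKM in the control group and 4.65 and 4.07 FPKM in the IL-12 treatment group. It fell by 0.30 on the log2 scale (standard error 0.08, adjusted p = 0.00862 by the same edgeR test), and its interval of -0.47 to -0.13 did not overlap that of Podxl. The ratio of Podxl to Podxl2 per length was therefore 2.03 and 1.81 in the control group and 2.86 and 3.14 in the IL-12 treatment group. The fall of Podxl2 did not pass without IL-12 replicate 2 (adjusted p = 0.134 by the same edgeR test) or with the DESeq2 Wald test (adjusted p = 0.0584). Fat4 fell by 0.34 on the log2 scale (adjusted p = 6.79e-05 by edgeR's quasi-likelihood test), and its interval of -0.45 to -0.23 lay below that of Fat1 (-0.0032 to 0.10). Tjp3 fell by 1.19 on the log2 scale (adjusted p = 0.00395 by the same edgeR test), from 73 and 81 counts to 49 and 19 counts, and without IL-12 replicate 2 it did not pass (log2 fold change -0.71, adjusted p = 0.0747 by the same edgeR test). Magi3 and Tjp3 overlap genes on the opposite strand, Phtf1 with 6530 counts against 14161 and Apba3 with 2821 counts against 222, and as no source says that strand was used in counting, their values are uncertain. The paralogs Ptprj and Magi1 did not pass and had log2 fold changes of -0.02 and 0.11.

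**Figure D4:**
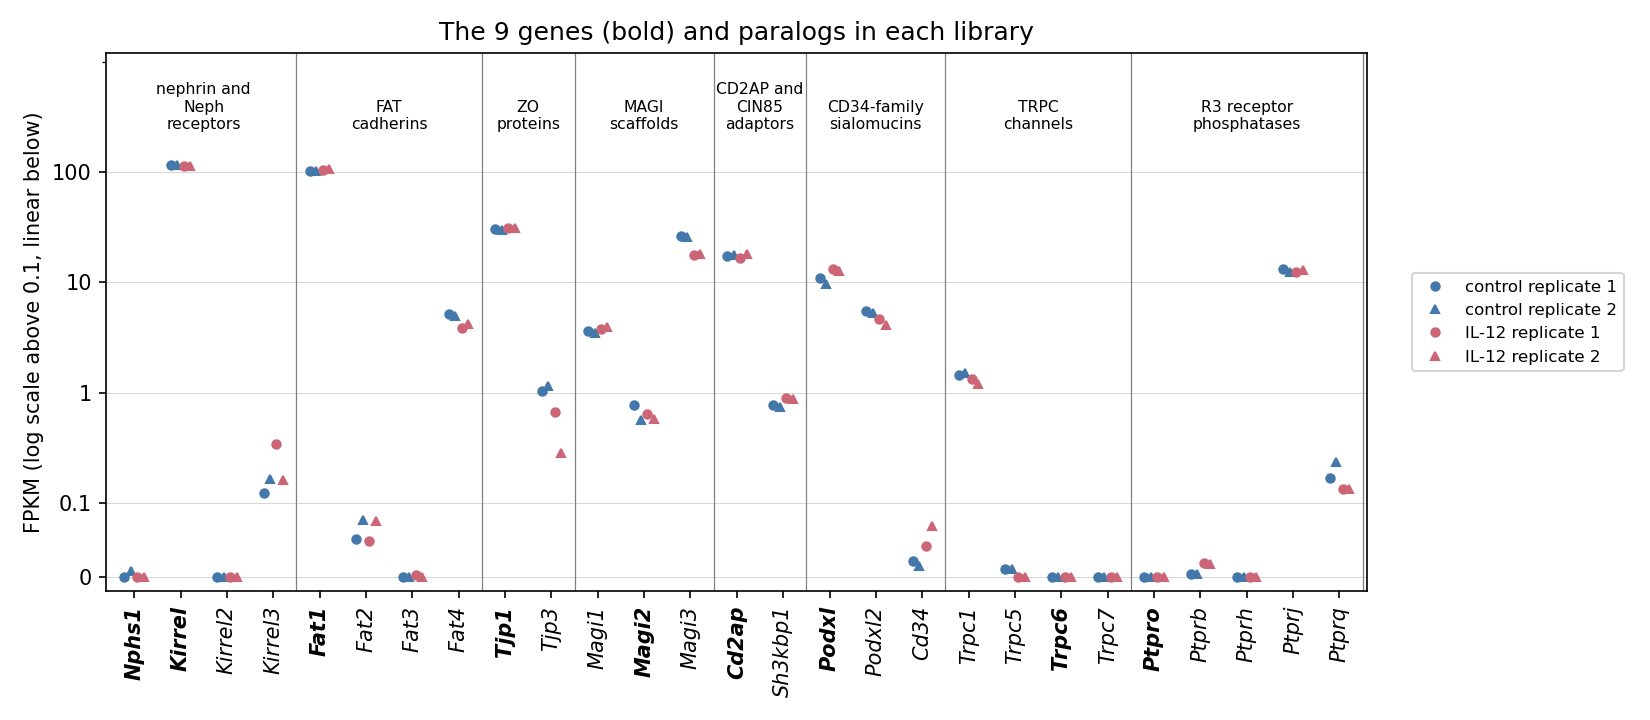
Level per length (FPKM, vertical axis, log scale above 0.1 and linear below) of the 9 genes (bold) and of paralogs in each library, with control libraries in blue and IL-12 libraries in red. Kirrel, Fat1 and Cd2ap dominate their families, whereas Magi3, Trpc1 and Ptprj stand above Magi2, Trpc6 and Ptpro.

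Podocalyxin is anchored to actin through ezrin and the NHERF adaptors, and 10 genes of this complex and its relatives were examined. Of the 9 tested, 3 rose, 3 fell and 3 did not pass, against 16.1% higher and 14.4% lower among all genes tested. The median log2 fold change of the list was -0.05. Msn, the gene of moesin, which like ezrin links membrane proteins to actin, had 22714 and 22063 counts in the control group and 31233 and 28894 counts in the IL-12 treatment group. It rose by 0.42 on the log2 scale (standard error 0.02, adjusted p = 3.36e-10 by edgeR's quasi-likelihood test). Ezr itself had 12756 and 12860 counts in the control group and 10577 and 9802 counts in the IL-12 treatment group. It fell by 0.33 on the log2 scale (standard error 0.03, adjusted p = 3.77e-08 by the same edgeR test). The ratio of Msn to Ezr per length changed from 0.926 and 0.892 in the control group to 1.54 and 1.53 in the IL-12 treatment group. Arhgdia, an inhibitor of small GTPases whose loss is known to cause proteinuria, rose by a log2 fold change of 0.21 (adjusted p = 8.16e-05 by the same edgeR test). Rhoa rose by 0.10 (adjusted p = 0.029 by the same edgeR test), but with the replicate number as a block its adjusted p was 0.0531, and with scaling by total counts only it was 0.206. Nor did Rhoa pass without control replicate 1, control replicate 2 or IL-12 replicate 1 (adjusted p = 0.0544, 0.201 and 0.178 by the same edgeR test). Besides Podxl2, the mucin-type protein gene Pdpn (podoplanin) fell, by 0.47 on the log2 scale (adjusted p = 0.0395 by the same edgeR test). The fall of Pdpn did not pass with the DESeq2 Wald test (adjusted p = 0.214), nor without control replicate 2, IL-12 replicate 1 or IL-12 replicate 2 (adjusted p = 0.212, 0.0923 and 0.185 by the same edgeR test). The NHERF genes Slc9a3r1 and Slc9a3r2 and the radixin gene Rdx did not pass, with log2 fold changes of -0.06, -0.05 and 0.09.

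Of 30 other genes listed as slit diaphragm partners, 24 were tested, 3 rose, 6 fell and 15 did not pass, against 30.5% of all genes tested that passed. The median log2 fold change of the list was 0.006. Iqgap1, a nephrin-binding scaffold for actin, rose from 16.4 to 21.3 FPKM as group means, which is 0.38 on the log2 scale (standard error 0.03, adjusted p = 4.74e-08 by edgeR's quasi-likelihood test). Myo1c, a motor that carries nephrin and Neph1 to the membrane, rose by a log2 fold change of 0.15 (adjusted p = 0.000904 by the same edgeR test). Plce1, a phospholipase mutated in familial nephrotic syndrome, had 780 and 822 counts in the control group and 561 and 544 counts in the IL-12 treatment group. It fell by 0.54 on the log2 scale (standard error 0.07, adjusted p = 8.76e-06 by the same edgeR test). The polarity gene Mpp5 (PALS1), the P-cadherin gene Cdh3 and the PI3-kinase subunit gene Pik3r1 fell by 0.31, 0.25 and 0.26 on the log2 scale (adjusted p = 1.27e-05, 4.8e-05 and 0.000262 by the same edgeR test). The remaining calls, named here after their values were seen, were Fyn, which phosphorylates nephrin and was higher by 0.18, and the genes Cdh2 and Pard6b, which were lower by log2 fold changes of -0.11 and -0.23. Fyn did not pass with the DESeq2 Wald test (adjusted p = 0.13), nor without control replicate 1 or IL-12 replicate 2 (adjusted p = 0.101 and 0.186 by edgeR's quasi-likelihood test). Cdh2 did not pass with limma on log2(FPKM + 1) or log2(FPKM + 0.1) (adjusted p = 0.0501 and 0.0519). Pard6b did not pass without IL-12 replicate 1 (adjusted p = 0.0572 by the same edgeR test). The most abundant genes that did not pass were Prkci, the atypical protein kinase C of the polarity complex, with 161 FPKM in the control group, Ctnnb1 (β-catenin) with 95.2 FPKM and Grb2 with 32.3 FPKM. Prkci passed with scaling by total counts only (adjusted p = 0.0251 by the same edgeR test).

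TRPC6 is known for calcium entry that activates calcineurin and NFAT, and 12 genes of that route and of related channels were examined. Of the 10 tested, 2 fell and 8 did not pass, a share near the 14.4% of all genes tested that fell, and the median log2 fold change was -0.02. Both genes that fell encode regulators of calcineurin. Rcan1 had 989 and 1020 counts in the control group and 834 and 707 counts in the IL-12 treatment group, and fell by 0.39 on the log2 scale (adjusted p = 9.32e-05 by edgeR's quasi-likelihood test). Rcan2 had 211 and 196 counts in the control group and 79 and 117 counts in the IL-12 treatment group, and fell by 1.05 on the log2 scale (standard error 0.17, adjusted p = 0.000123 by the same edgeR test). The calcineurin subunit genes Ppp3r1 and Ppp3ca and the transcription factor gene Nfatc3, the most abundant of the others, had log2 fold changes of 0.10, -0.0072 and 0.02 and did not pass.

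**Figure D5:**
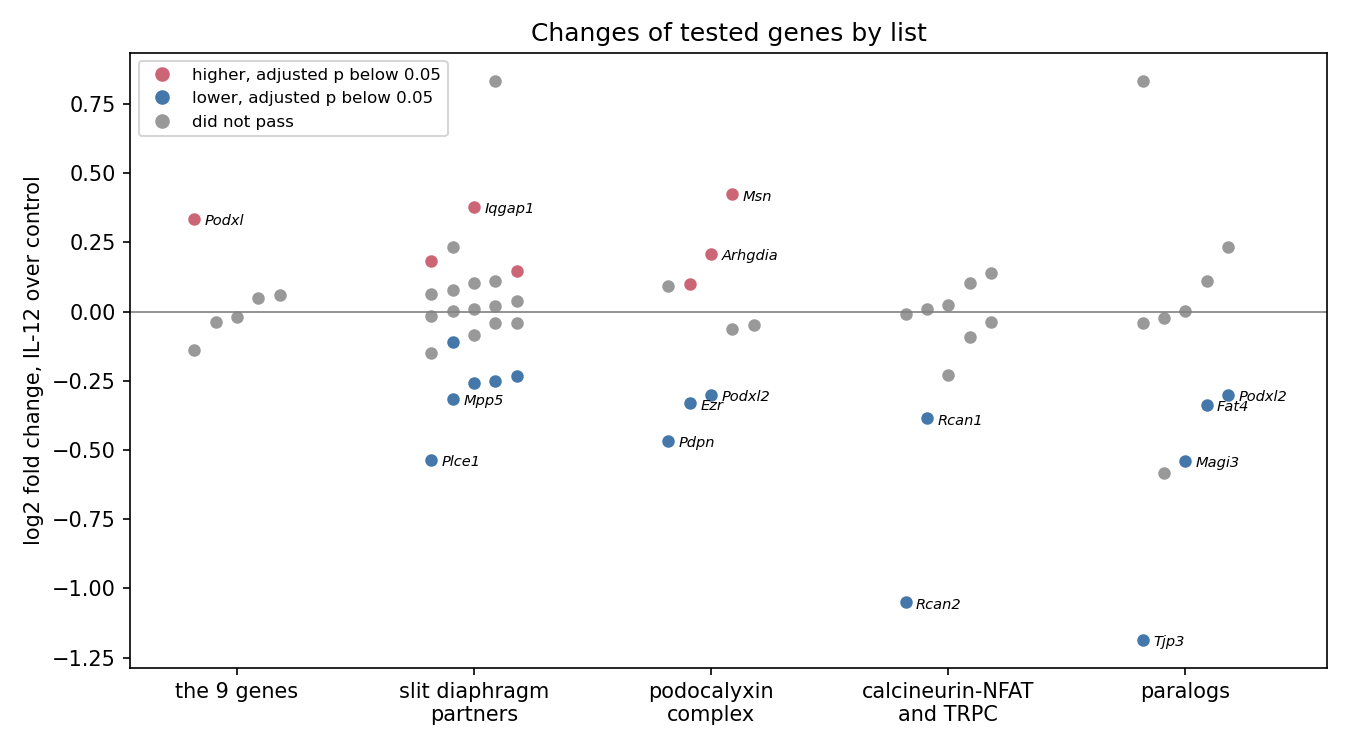
Log2 fold change of IL-12 over control (vertical axis) for every tested gene of the 9 and of the lists of slit diaphragm partners, podocalyxin complex, calcineurin-NFAT and TRPC genes, and paralogs, with genes that passed as higher in red, as lower in blue and the others in grey. Podxl is the only coloured point among the 9 genes, Msn and Ezr lie at 0.42 and -0.33, and Rcan2 and Tjp3 lie lowest, at -1.05 and -1.19.

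Genes listed as markers of other cell types also differed between the groups, although all libraries came from a single line. The summed level of the 11 parietal and tubular epithelium markers was 1014 to 1046 CPM in the control group and 800 to 839 CPM in the IL-12 treatment group, and 3 of the 4 tested were lower (Pax2, Pax8 and Lrp2), against 14.4% of all genes tested. Of the 14 podocyte markers, 5 of the 7 tested were higher (among them Podxl, Actn4, Vim and Nes), against 16.1% of all genes tested, and Synpo was lower, with a log2 fold change of -0.66 (adjusted p = 3e-11 by edgeR's quasi-likelihood test). Of the 6 mesangial markers 3 were tested, of which Pdgfrb was higher and Gata3 lower (both named after their values were seen), and the list summed to 69.5 to 70.6 CPM in the control group and 71.0 to 81.7 CPM in the IL-12 treatment group. Leukocyte markers summed to at most 7.18 CPM, with Adgre1 and Cd3e at 0 counts, and endothelial markers to at most 0.555 CPM, with Emcn and Tie1 at 0 counts. Whether cells within the line differ in these genes was not measured. A change in the share of such cells and a change of RNA per cell cannot be told apart in these bulk libraries. The part of such shifts in the change of Podxl was not tested.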

How the data were processed

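RNA-sequencing was analysed for 2 control and 2 IL-12 libraries. The authors deposited raw counts per gene, and FPKM values for the same genes, which equal the count per kilobase and library total times a factor constant within a library (0.985 to 1.02). The submitters' processing notes list HISAT2, StringTie and the build mm9, without versions, but 98.3% of the 54409 genes shared with GENCODE release M21 have its GRCm38 coordinates, which are given here. Multi-mapped reads and strand are not described in the sources used here.

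The software was edgeR 4.0.16, DESeq2 1.42.0 and limma 3.58.1 under R 4.3.3, and matplotlib 3.10.9 under Python 3.11.15 for the figures. Genes were filtered by filterByExpr (minimum count 10, total 15), which left 14095, scaled by TMM, and tested by edgeR's quasi-likelihood test without a block, with Benjamini-Hochberg adjustment over all of them. A gene was called at an adjusted p below 0.05. Each standard error was obtained from the quasi-likelihood F, with 95% intervals from its t quantile. For a single value, the smallest two-sided p of an exact permutation test is 0.333 at this sample size, so none was run. On simulated counts for this comparison (14095 genes, 50 changed at each fold), the test recovered 46 genes changed 1.5-fold and 50 changed 2-fold. There were 17 false calls in the whole simulation. The changed genes were drawn only from those above a count limit, and far fewer were changed than were called in the data. No change under 1.5-fold was simulated, so the simulation says nothing about smaller calls such as that of Podxl.

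The 9 genes, the lists and the motifs were chosen with earlier results of these data known. Named genes are the 9 genes and, from each list, up to 6 called genes with the smallest p, up to 3 of highest level that did not pass, and those at 0 counts; a few of these genes are counted in the lists but not reported here by name. Alternatives were other scalings, tests, filters and thresholds, the replicate number as a block, each library left out, log2(FPKM + 1) or log2(FPKM + 0.1) with limma, and coding length.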

Additional observations from a re-analysis of the deposited data

How the results depend on the processing

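Fat1 and Tjp1 kept their direction and did not pass under all 15 alternative fits, and Podxl stayed higher under all 15 and passed under 14. Under scaling to library totals alone, 2 of the 9 genes were called, as Kirrel passed (log2 fold change -0.0769), and 40.6% of all calls were higher, against 52.8% with TMM. A limit of 1.5-fold or, added after seeing the data, 2-fold left 0 of the 9 called (693 and 227 of all genes). The DESeq2 Wald test called 2705 genes (1492 higher, 1213 lower) and 3 of the podocalyxin complex, and limma on log2(FPKM + 1) and log2(FPKM + 0.1) called 1280 and 1277 as lower and 2 paralogs in each case.

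Leaving out a library in turn gave 0 to 1 called genes of the 9, 2528 to 3722 of all genes, 1404 to 2010 higher and 1124 to 1712 lower. The lowest of these counts came without IL-12 replicate 1. In these fits the lone library of a group is assumed to vary like the other group. The log2 fold change of Podxl lay between 0.23 and 0.45, that of Cd2ap between -0.0767 and 0.0395, of Magi2 between -0.35 and 0.11, of Slc9a3r2 between -0.121 and 0.0168, of Ppp3ca between -0.0594 and 0.0440, of Nfatc3 between -0.0145 and 0.0608 and of Ptprj between -0.0570 and 0.0165. Library totals alone gave -0.0187 for Nfatc3. The cause was not tested. Per coding length the mean levels were 362.9 (Kirrel), 116.5 (Fat1), 144.1 (Cd2ap), 45.83 (Tjp1), 42.46 (Podxl) and 1.711 FPKM (Magi2).

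The sources do not say whether same-numbered libraries were handled together. The deviations of same-numbered libraries correlated at -0.0323 across genes, but with so few libraries this cannot exclude a shared batch. With the replicate block 4341 genes and 1 of the 9 were called, and Rhoa lost its call. At 0 or 1 counts, Nphs1, Trpc6 and Ptpro could not be tested, and among the 6 tested genes Magi2, with the fewest counts, had the widest interval.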
